A study of Mus musculus with 5 samples.

Results

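The Myc, Max and Mxd network was followed through 9 genes, namely Myc, Mycn, Max, Mxd1, Mxd3, Mxd4, Mxi1, Mnt and Mlx, of 20014 genes that could be named on the array. They were chosen by symbol, and every probe whose RefSeq accession belonged to one of them was taken. This gave 11 of 55681 probes, with a pair of probes for each of Mxd1 and Mxd4 and 1 probe for each other member. The brightest probe, by its mean over the arrays, stood for its gene. All levels below are log2 signals relative to the 75th percentile of their array, so a level of 0 is the signal that 75% of spots lie under. Levels of different probes are not comparable with each other.

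The study measured total RNA from mouse tumour cells on 5 one-colour arrays, 1 for each of 5 groups. The cells are tumour cells of EWS/ATF1 mice on a mixed genetic background (C57/BL6, 129 and ICR), in which doxycycline turns the EWS/ATF1 transgene on and soft tissue sarcomas form. EWS/ATF1 is the fusion protein of human clear cell sarcoma, in which the DNA-binding part of the CREB family factor ATF1 is joined to EWS. The groups were a control, a low dose and a high dose of doxycycline at 3 h, and a high dose and a control at 48 h. All 5 carry the inducible allele. The sources used here give neither the doxycycline concentrations nor whether controls received any, and name neither the promoter behind the inducer nor the tumour line of each array. A difference between arrays may therefore include a difference between lines. With 1 array per group no difference has a replicate check and no p-value is given. A 2-fold difference, 1 on the log2 scale, between arrays that both measured the gene above background counted as a call. The scanner error printed beside a difference is the extraction software's estimate for the spots of both arrays and covers technical error within an array only.

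Each array had 30884 to 33427 probes above background and a 75th percentile of 420 to 725 signal units, and no spot was saturated. All 10 mesenchymal markers were above background on every array. Of 10 neural crest and Schwann cell markers 6 were above it on every array, with summed levels of 104 to 154 on the linear scale. Foxd3, Gfap and Erbb3 were among those below it on every array. The sum was highest on the 48 h high-dose array. There 2 of 6 measured markers were called lower than in the 48 h control and 0 higher, beside 10.1% and 9.92% of all genes. The differences of the 6 ran from -6.45 to 0.72, with a median of -0.29. Of 6 melanocyte markers, 3 or 4 were above background on each array, Mitf, Tyr and Pmel on all of them. Tyrp1 and Dct were below background on every array. Macrophage markers differed between arrays. Of 11 such genes, 10 were above background at 48 h of the high dose, against 6 in the 48 h control, and their summed level on the linear scale was 47.1 and 8.98. Ptprc, the pan-leukocyte marker, was below background on both of those arrays, while Csf1r, the macrophage growth factor receptor, was above it on both. The 3 h arrays had 9 above background in the control, 10 with the low dose and 6 with the high dose, with summed levels of 9.02, 8.43 and 7.52. Mesenchymal markers summed to 53.5 at 48 h of the high dose, against 103 in the 48 h control. The part of these cell type markers in the differences below was not tested. In bulk RNA, fewer cells of a type and less RNA per cell cannot be told apart.

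Myc and Mycn encode basic helix-loop-helix leucine zipper transcription factors that bind DNA as dimers with Max and activate genes of growth, ribosome production and division. Mxd1, Mxd3, Mxd4, Mxi1 and Mnt encode proteins that compete for the same partner and, as dimers with Max, recruit Sin3 corepressors to the same DNA element, the E-box. Mxd proteins are known for their part in exit from the cell cycle, except Mxd3, which is found in dividing cells in S phase. Mlx is the partner in a parallel branch, where it joins the glucose-sensing factors encoded by Mlxip and Mlxipl. In neural crest-derived tumours Mycn is best known from neuroblastoma, where the gene is often amplified.

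Mycn, Mxd1 and Mxd3 were the members at least 2-fold higher at 48 h of the high dose than in the 48 h control, Mxd1 by only one of its probes and Mxd3 as a bound. Of the 7 members above background on both arrays, 2 were called higher and 0 lower. Mxd1 counts among them by the probe that was chosen through its high-dose levels. Over all 13735 genes measured on both arrays, 20.0% were called, 9.92% higher and 10.1% lower. The median difference over the 7 measured members was 0.38, the value of Mxd4, with 4 members above 0 and 3 below. It was 0.05 over all measured genes and 0.36 over 12 reference genes such as Actb and Gapdh. Mxd3 was above background on the high-dose array alone, and Mxi1 was below background on both arrays. Cell cycle genes were higher on the same array, with a summed level of 251 over 20 genes at 48 h of the high dose, against 44.1 in the 48 h control and 40.4 to 46.8 at 3 h.

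**Figure D1:**
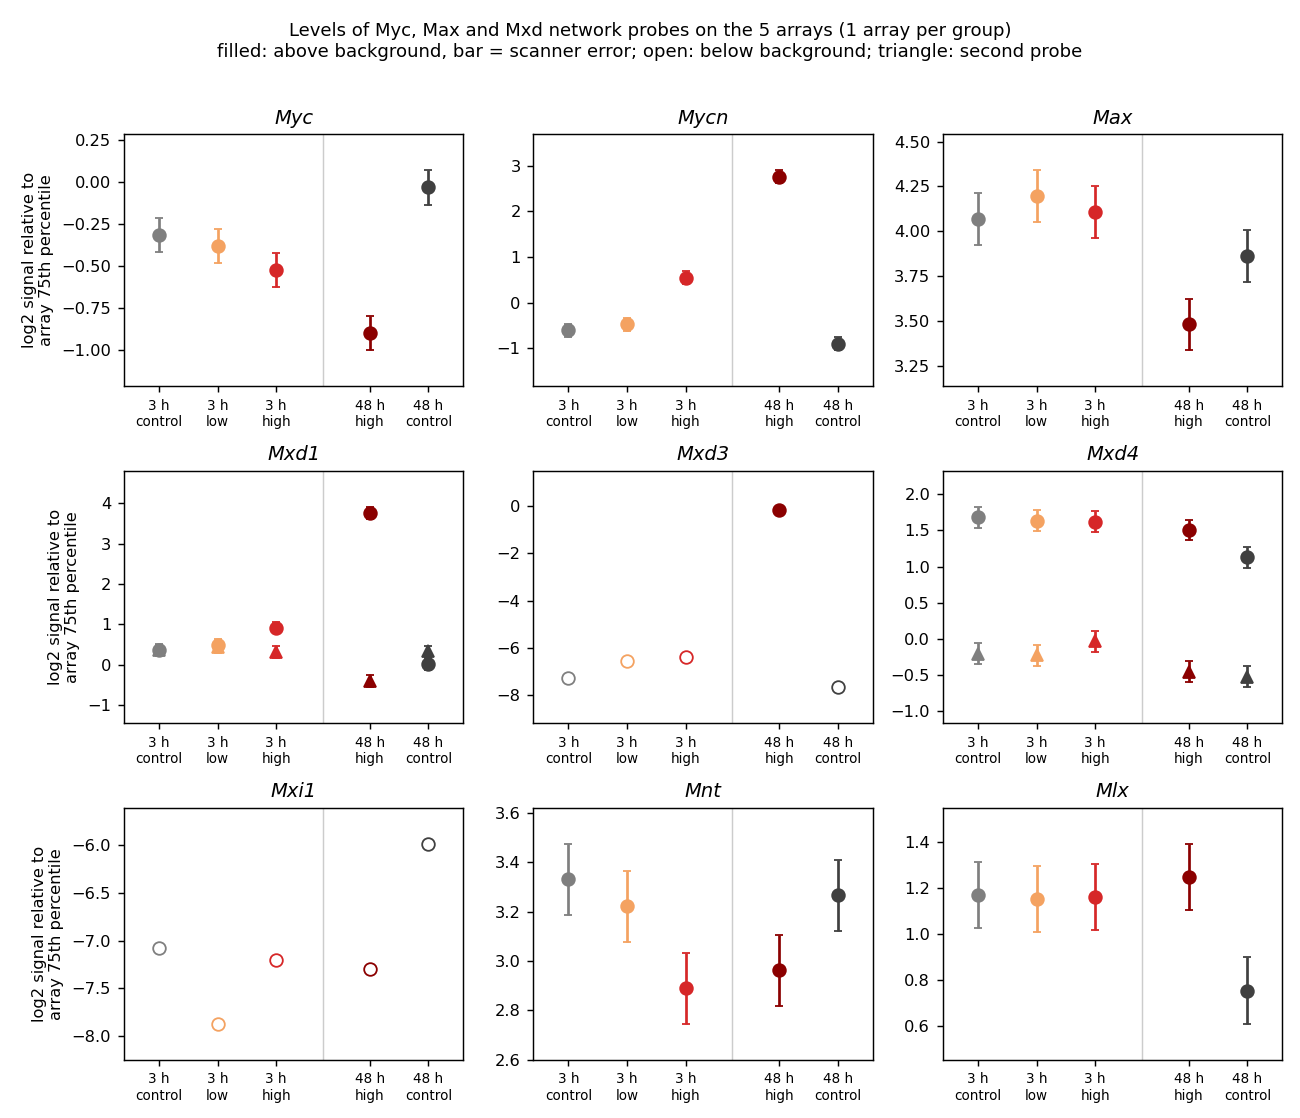
Each panel plots 1 member's log2 level relative to its array's 75th percentile on the 5 arrays, 3 h groups on the left and 48 h groups on the right of the grey line. Filled points were above background, with the scanner error as bars, open points were below it, and triangles are the second probe of Mxd1 and Mxd4. The 48 h high-dose array stands apart for Mycn at 2.75, for Mxd3 at -0.20 and for one Mxd1 probe at 3.77, while the other Mxd1 probe has its lowest level there, at -0.41.

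Mycn was the one member called higher at both times of the high dose. Its level was -0.61 in the 3 h control, -0.48 with the low dose and 0.54 with the high dose. It reached 2.75 at 48 h of the high dose, against -0.90 in the 48 h control. The high-dose arrays were thus above the other 3 at both times, and the 3 lowest levels lay within 0.42 of each other. At 3 h the high dose was 2.22-fold above control (log2 difference 1.15, scanner error 0.205). It ranked 181 from the top among 14000 measured genes. In that comparison 1.86% of all measured genes were called higher and 1.44% lower, 3.31% in all, and Mycn was the 1 member called. Against the low dose the high dose was higher by 1.02, just past 2-fold, and Mycn was again the 1 member called. That call was lost with arrays centred on their median (0.97) and with normexp background correction (0.94). Of 14346 genes 1.28% were called higher there and 0.885% lower, 2.16% in all. At 48 h the high dose was 12.6-fold above control (log2 difference 3.66, scanner error 0.204), rank 108 among 13735 genes. The high dose gave a level higher by 2.21 at 48 h than at 3 h, a comparison in which 2 of 7 measured members, Mycn and Mxd1, were called higher and 0 lower. Of all 13768 genes 9.13% were called higher and 8.43% lower, 17.6% in all. The low dose differed from control by 0.13, less than the scanner error of 0.205, and the control arrays by -0.29 (48 h minus 3 h).

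The neighbouring levels of Mycn in ascending order were those of the 48 h control, the 3 h control, the low dose, the high dose at 3 h and the high dose at 48 h. The gap between the 2 controls was 1.43 times its scanner error and that between the 3 h control and the low dose 0.633 times. The upper gaps were 5.01 and 10.8 times their scanner errors. Among 13466 genes above background on all 5 arrays, the pattern of Myom2, a muscle M-band protein, was nearest, with a root mean square difference of 0.14 log2 units over the 5 arrays after each gene was centred on its own mean. Next were Epha2, an ephrin receptor tyrosine kinase, at 0.18 and Lypd5, a Ly6 domain gene, at 0.20. Epha2 had a level of 3.11 at 48 h of the high dose, against -0.27 in the 48 h control. Its 3 h levels were 0.09, 0.44 and 1.15 in order of dose.

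Myc showed no such pattern. Its probe was spotted as a pair on each array, and the mean level was -0.32 in the 3 h control, -0.38 with the low dose and -0.53 with the high dose. The 48 h level was -0.90 at the high dose, against -0.03 in the control. The groups' spots did not overlap, the higher spot of the 48 h high-dose array lying at -0.80 and the lower one of the 48 h control at -0.04. The difference of -0.87 (scanner error 0.145) is under 2-fold, and 1692 of 13735 genes had a more negative one, while 10.1% were called lower. At 3 h the high dose differed from control by -0.21 and the low dose by -0.07. Spots of the same array differed by up to 0.24, so the 3 h differences are no larger than the widest gap between spots. At 48 h the differences of Myc and Mycn thus had opposite signs, and of these only that of Mycn passed 2-fold.

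The RefSeq start region of Mycn (GRCm38.p6, chr12:12941787-12942086, minus strand) is shown because Mycn was the member called at both times and 2 copies of an E2F-type motif lie in it. It runs from 250 bases before to 50 after the gene's start, 5′ to 3′, and capitals mark TTTGGCGC on either strand.
Mycn: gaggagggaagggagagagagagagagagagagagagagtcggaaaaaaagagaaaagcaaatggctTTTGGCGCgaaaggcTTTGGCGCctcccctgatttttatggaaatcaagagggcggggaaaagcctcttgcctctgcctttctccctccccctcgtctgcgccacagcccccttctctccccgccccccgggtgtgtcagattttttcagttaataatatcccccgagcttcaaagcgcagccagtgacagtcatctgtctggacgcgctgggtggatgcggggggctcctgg
The motif was chosen after the levels were known and the sequence read, so its presence here is a description without a test. It occurs in 0.514% of 32851 RefSeq windows of this length. The same window held no CACGTG, the E-box bound by dimers with Max, and no TGACG, the core site of CREB family factors, on either strand. This core occurs in 20.8% of all windows, and TGACGTCA, the palindromic site that contains it, in 1.79%. A match is a description of the sequence and not a binding site.

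Mxd1, whose protein competes with Myc for Max, gave 2 answers. Its brighter probe was at 0.35 in the 3 h control, 0.49 with the low dose and 0.92 with the high dose. It read 3.77 at 48 h of the high dose, against 0.01 in the 48 h control, a 13.5-fold difference (log2 difference 3.76, scanner error 0.204). It ranked 98 from the top among 13735 genes. Its second probe, with the same accession, was at 0.37, 0.43 and 0.31 on the 3 h arrays in order of dose. It read -0.41 at 48 h of the high dose, against 0.33 in the 48 h control, a difference of -0.74 (scanner error 0.204). On the linear scale the brighter probe read 5712 at 48 h of the high dose and 654 in the control, and the second 316 and 815. On both controls the second probe was the higher of the pair, at 0.37 against 0.35 and 0.33 against 0.01. The first is thus the brighter by its mean only through the high-dose arrays, and its rank and fold rest on that choice.

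The levels of the Mxd1 probes lay within 0.32 of each other on the controls and the low-dose array and 0.61 apart at 3 h of the high dose. The gap between their 48 h differences was 4.50. Of 3580 genes with more than 1 measured probe in that comparison, 4, or 0.112%, Mxd1 included, had a gap as large, against a median gap of 0.29. At 3 h of the high dose the differences from control were 0.57 and -0.06, a gap reached by 5.85% of 3656 genes. Both Mxd1 probes are thus above background on all 5 arrays and disagree in direction at 48 h. With the second probe in place of the first, 1 of 7 members was called at 48 h. The probe sequences were not used here, so which transcripts each probe reads was not tested. The lncRNA gene Gm38850 overlaps Mxd1 in RefSeq and has no probe among the named genes. The pattern of the brighter probe was nearest to those of Cryaa, a lens crystallin, and Tacc3, a spindle protein (root mean square difference 0.15 each), then Lypd5 (0.16). Cryaa was dim, at -1.10 at 48 h of the high dose and between -4.73 and -4.03 on the other arrays. The lowest levels above background on the arrays ran from -6.44 to -5.18. A second Cryaa probe was below background on every array.

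Mxd3, the family member of dividing cells, was below background on 4 of 5 arrays and above it at 48 h of the high dose. Its level was -0.20 there, against -7.65 in the 48 h control, and -7.27, -6.53 and -6.37 at 3 h in order of dose. The 4 dim values have no order. Taken against the lowest level above background on the 48 h control array, -5.45, the high dose was at least 38.0-fold higher at 48 h. Against the 3 h high-dose array it was at least 39.4-fold higher, and against the 3 h control at least 31.5-fold. The linear signal was 366 at 48 h of the high dose and between 3.24 and 6.73 on the other arrays. Mxd3 has 1 probe with 1 spot, so this rests on a single spot of a single array.

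**Figure D2:**
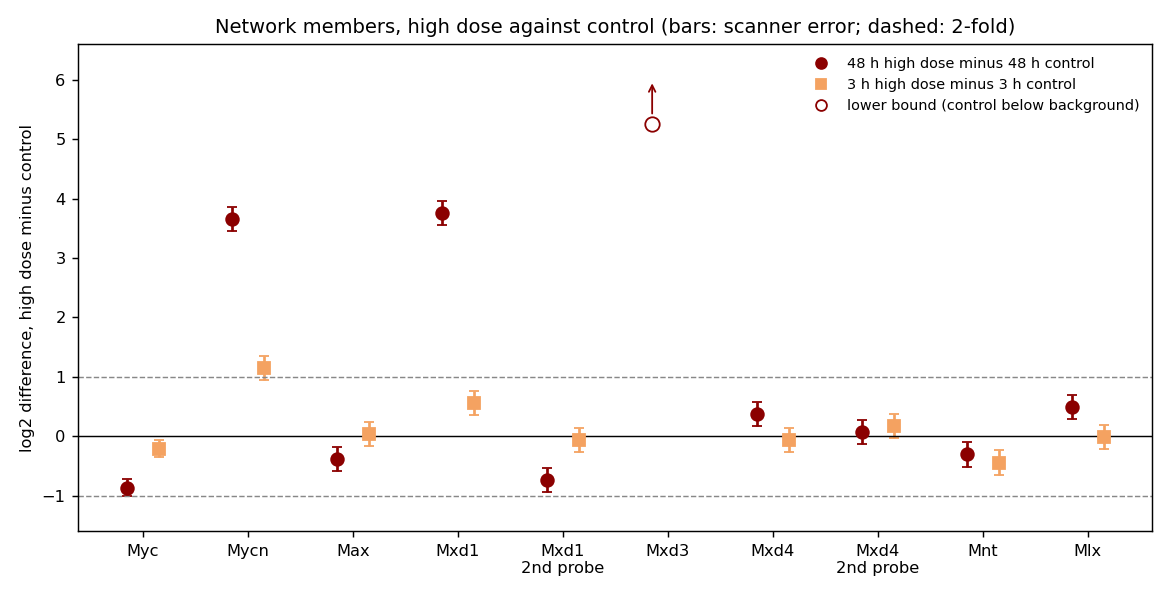
The log2 difference of high dose minus control is plotted for each probe of the members, with circles for 48 h and squares for 3 h. Bars are the scanner error, dashed lines mark 2-fold, and the open circle with an arrow is the lower bound for Mxd3. Mxi1, below background on all arrays, is left out. Mycn and the brighter Mxd1 probe lie at 3.66 and 3.76 at 48 h, and the other measured probes lie between -0.87 and 0.49 at that time.

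The start regions of Mxd1 (GRCm38.p6, chr6:86669110-86669409, minus strand) and Mxd3 (GRCm38.p6, chr13:55329682-55329981, minus strand) are given beside that of Mycn because Mxd3 and the brighter Mxd1 probe were highest on the same array as Mycn. Neither holds any of the 4 motifs named above on either strand, so they carry no capitals.
Mxd1: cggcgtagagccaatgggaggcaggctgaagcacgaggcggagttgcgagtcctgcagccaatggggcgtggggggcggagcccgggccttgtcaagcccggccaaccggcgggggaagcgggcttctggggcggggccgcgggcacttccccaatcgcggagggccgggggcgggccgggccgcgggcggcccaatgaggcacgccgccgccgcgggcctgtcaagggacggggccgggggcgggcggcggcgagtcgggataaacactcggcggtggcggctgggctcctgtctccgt
Mxd3: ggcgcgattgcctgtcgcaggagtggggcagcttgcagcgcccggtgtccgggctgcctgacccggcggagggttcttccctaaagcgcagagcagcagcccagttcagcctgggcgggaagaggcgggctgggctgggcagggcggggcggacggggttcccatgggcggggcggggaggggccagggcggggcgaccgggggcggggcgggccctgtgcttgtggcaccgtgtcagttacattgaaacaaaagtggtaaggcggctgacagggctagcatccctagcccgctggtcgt
The lack of these letters in a window of this length says nothing of the factors that bind them.

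Max, Mxd4, Mnt and Mlx stayed under 2-fold in all 6 comparisons made. Max, the shared partner, was at 4.07, 4.20 and 4.11 at 3 h in order of dose. The 48 h level was 3.48 at the high dose, against 3.86 in the control, a difference of -0.38 (scanner error 0.204). Its lowest level was thus at 48 h of the high dose, and its largest difference, -0.63, was between 48 h and 3 h of the high dose.

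Mnt, the widely expressed repressor partner of Max, was at 3.33, 3.22 and 2.89 at 3 h in order of dose. The 48 h high dose gave 2.96, against 3.27 in the 48 h control. The high-dose arrays had its 2 lowest levels, 0.26 under the next, with differences from control of -0.44 at 3 h and -0.31 at 48 h (scanner error 0.204 each).

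Mlx, the partner of Mlxip and Mlxipl, was at 1.17, 1.15 and 1.16 on the 3 h arrays in order of dose. Its 48 h levels were 1.25 at the high dose, against 0.76 in the control. The 4 other arrays lay within 0.10 of each other, so the difference of 0.49 at 48 h comes with a low 48 h control, which was 0.42 under the 3 h control.

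Mxd4, the repressor linked to quiescent cells, was at 1.68, 1.63 and 1.62 at 3 h in order of dose on its brighter probe. That probe was at 1.51 at 48 h of the high dose, against 1.13 in the 48 h control. Its second probe was at -0.21, -0.23 and -0.03 at 3 h, and at -0.46 at 48 h of the high dose, against -0.52 in the 48 h control. Both Mxd4 probes were lowest in the 48 h control. Their differences at 48 h were 0.38 and 0.07, a gap that 48.0% of genes with more than 1 measured probe reached.

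Mxi1, a further Max-binding repressor, was below background on all 5 arrays, with linear signals between 2.51 and 10.2. Its single probe carries the accession of 1 of several RefSeq transcripts, and which of them it reads was not tested. No member was called between the low dose and control at 3 h, where 0.761% of 14057 genes were called higher and 0.583% lower, 1.34% in all. None was called between the control arrays either (48 h against 3 h), where 2.50% of 14013 genes were higher and 1.36% lower, 3.87% in all. The low-dose and high-dose comparisons at 3 h share their control array.

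RefSeq start regions were matched to 8 of the 9 members. Those of Max, Mlx, Mnt and Mxd4 hold 1 CACGTG each, while those of Mycn, Mxd1, Mxd3 and Mxi1, the last with 3 windows, hold none. The E-box occurs in 7.15% of 32851 windows and in the windows of 8.09% of 27025 genes. These 30-base stretches (GRCm38.p6) are shown because they carry the element that the network's own dimers bind, in capitals. They lie at chr12:76962234-76962263 on the minus strand for Max, chr11:101087238-101087267 on the plus strand for Mlx, chr11:74830789-74830818 on the plus strand for Mnt and chr5:34187912-34187941 on the minus strand for Mxd4.
Max: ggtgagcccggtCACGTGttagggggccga
Mlx: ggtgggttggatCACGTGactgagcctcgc
Mnt: ccccacccaagcCACGTGtgcgcgcgcggt
Mxd4: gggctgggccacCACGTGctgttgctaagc
The element starts 3 bases before the start site in Max, 40 in Mlx, 123 in Mnt and 219 in Mxd4. Of the other motifs searched, the window of Mlx held 1 TGACG. The motifs were chosen after the levels were known and the sequences read, and the split between members is a description without a test.

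The remaining genes of the wider network were Mycl, Mga, Mlxip and Mlxipl, all above background on every array. Mga, which encodes a further Max partner, was called lower at 48 h, at -2.07 at the high dose, against -0.98 in the control (difference -1.09). Mycl, the third Myc family gene, was at -1.79, -2.07 and -2.76 on the 3 h arrays in order of dose. The 48 h high-dose array had -3.48, against -3.25 in the 48 h control. Its control arrays differed from each other by -1.46 (48 h minus 3 h), more than either dose from its control. Mlxip and Mlxipl stayed under 2-fold, with 48 h differences of -0.49 and 0.77, and the second Mlxip probe was at -0.35.

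Txnip, the best known target of Mlx with Mlxip, which encodes an inhibitor of glucose uptake, was called lower at the high dose at both times. Its level was 2.33 in the 3 h control, 1.77 with the low dose and 0.85 with the high dose (difference from control -1.48). It was -2.50 at 48 h of the high dose, against 2.12 in the 48 h control, a difference of -4.62. The high-dose arrays had the 2 lowest levels and the 2 controls differed by -0.20 (48 h minus 3 h). A second Txnip probe gave -1.22 at 3 h and -2.76 at 48 h. Arrdc4, another target of this branch, gave -0.26 on its brighter probe and -2.35 on its second at 48 h, so it was called on one probe only.

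Of the known targets of Myc proteins, none was called at 3 h of the high dose and 17 of 63 were higher at 48 h. The 63 targets, in 3 lists and all measured, had 3 h differences between -0.44 and 0.49, where 3.31% of all genes were called. The 48 h calls were 17 higher and 1 lower, or 27.0% and 1.59%, beside 9.92% and 10.1% of all genes. Their median difference was 0.59, beside 0.05 over all measured genes and 0.36 over 12 reference genes such as Actb and Gapdh. Of the 63 targets, 51 lay above 0. With quantile normalization and with normexp, 12 were called higher and 1 lower at 48 h. Of all 13735 genes, quantile normalization called 1229 higher and 1461 lower, and normexp 1069 and 965. The lists were written with earlier results of these data known and are not independent evidence of a direction.

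Genes of the nucleolus and ribosome assembly had 4 of 25 higher and 0 lower at 48 h, beside 9.92% and 10.1% of all genes, and a median of 0.57, beside 0.36 for the reference genes. They were led by Fbl, a methyltransferase of ribosomal RNA, at 1.26, Nolc1, a nucleolar chaperone, at 1.14, and Nop58, a core protein of small nucleolar particles, at 1.08. A second Nolc1 probe was at 0.26. Genes of metabolism and translation had 6 of 27 higher and 0 lower, a share of 22.2% higher (median 0.54). Odc1, the rate-limiting enzyme of polyamine synthesis and a classic Myc target, was at 5.85 at 48 h of the high dose, against 3.23 in the control. Its difference of 2.62 was 2.75 and 3.13 on its other probes. Nme1, a nucleoside diphosphate kinase, was higher by 2.05 and Shmt1, of one-carbon metabolism, by 1.55 (second probes 1.44 and 3.04).

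Targets with a role in the cell cycle had 7 of 11 higher and 1 lower at 48 h (median 1.01), beside 9.92% and 10.1% of all genes. E2f2, which encodes an S phase transcription factor, was at 2.83, Cks2, a subunit of cyclin-dependent kinases, at 2.44 and the cyclin gene Ccnd2 at 2.38. The 1 lower gene, named after its value was seen, was Id2 at -1.36, an inhibitor of differentiation. Beside these stood a further list of 20 cell cycle genes, and which of them are also Myc targets was not tested. At 48 h of the high dose 17 of its 18 measured genes were called higher and 0 lower, with a median of 4.68. Mki67, a marker of dividing cells, was higher by 6.86, Ube2c by 6.68 and Ccna2 by 6.26. At 3 h of the high dose 0 of 17 were called, with a median of -0.06, where 3.31% of all genes were called. The part of cell division in the levels of Mycn, Mxd3 and the targets was not tested.

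**Figure D3:**
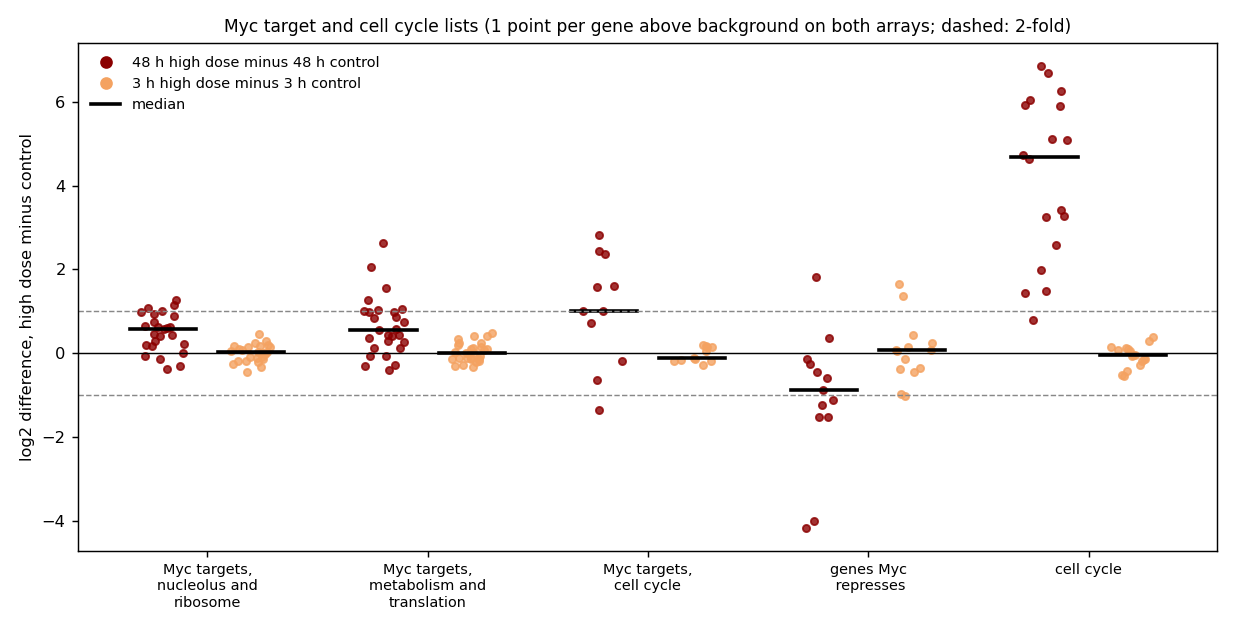
Each point is the log2 difference of 1 gene above background on both arrays, high dose minus control, at 48 h (dark red) and 3 h (orange), with the median of each list as a bar and dashed lines at 2-fold. At 48 h the medians are 0.57, 0.54 and 1.01 for the target lists, -0.88 for genes repressed by Myc and 4.68 for the cell cycle list, while at 3 h all of them lie near 0.

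Genes that Myc is known to repress had 6 of 13 measured members lower and 1 higher at 48 h (median -0.88), beside 10.1% lower and 9.92% higher over all genes. Thbs1, encoding the matrix protein thrombospondin, was at -4.16 and Cdkn2b, an inhibitor of the kinase CDK4, at -4.00, with -3.93 on its second probe. The higher one was Gadd45a, a growth arrest gene, at 1.81. The 3 h high-dose array had 2 of 14 higher and 1 lower, beside 1.86% and 1.44% of all genes, with Gadd45a at 1.66, Ndrg2, a growth-inhibiting gene, at 1.37 and Ddit3, a stress response factor, at -1.01. At the low dose Thbs1 and Ndrg2, 2 of 14, were higher by 1.89 and 1.38, beside 0.761% of all genes called higher. The Ndrg2 level of the 48 h control was above that of the 3 h control by 2.21, more than either difference from control at 3 h. The list shares Col1a2 and Pdgfrb with the mesenchymal markers, of which 8 of 10 were called lower on the 48 h high-dose array. The part of those markers here was not tested.

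Among partners and chromatin cofactors of Myc and Mxd proteins, 1 of 16 measured genes, or 6.25%, was higher at 48 h and 0 were lower (median 0.14), beside 9.92% and 10.1% of all genes. It was Sin3b, a scaffold of the Sin3 corepressor through which Mxd proteins act, at 6.57 at 48 h of the high dose, against 5.21 in the control. It lay between 5.26 and 5.34 at 3 h, so 4 arrays were alike and the 48 h high dose was above them by at least 1.23. Sin3a, its paralogue, chosen after its value was seen, differed by -0.07. A second Sin3b probe was below background on 1 of the 5 arrays and gives no 48 h difference. None of the cofactors was called at 3 h of either dose.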

How the data were processed

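The authors deposited 1 scanner file per array, read with Agilent Feature Extraction 10.7.3.1 per the submitters' processing notes. Each value is the linear intensity of 1 spot, background-subtracted and detrended within each array and not scaled between arrays, per the file headers, which name the mm9 build for the array design. All 5 arrays were on 1 slide. The deposited value table holds the same intensity within 0.001 on the log2 scale for over 99% of probes. The medians of its columns are 38.3, 32.5, 31.9, 37.7 and 23.9 for the 3 h arrays by dose, then the 48 h control and the array of the 48 h high dose.

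From 59305 non-control spots per array, 111 to 146 marked as outliers were left out. Signals were taken to log2, the array's 75th percentile was subtracted and a probe's spots averaged. The software's flag for a signal well above background had to be set on a share of 0.5 or more of them. Accessions were matched without versions to RefSeq (GRCm38.p6), which named 26407 probes and left 29274 unnamed. No test was made, as each group has 1 array. Where only 1 array was above background, a bound was taken against the lowest level above background on the dim array. The median SD of a log2 difference between spots at the same positions, over probes spotted 10 times, was 0.0647 to 0.0756. Python 3.11.15, pandas 2.3.3, R 4.3.3 and limma 3.58.1 were used. Members, lists and the rule for named genes were chosen with earlier results of these data known. That rule named every member with all probes, all 4 other network genes and both Mlx targets, and up to 3 called genes of each other list with the largest differences. It added the 3 genes nearest in pattern to members above background on all arrays with a range of 1 log2 unit or more. Alternatives were median centring, quantile normalization, normexp with an offset of 50, no filter, the mean of probes, a 1.5-fold threshold, the value table and the other control array. The files hold median spot signals in place of the mean signals planned for normexp.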

Additional observations from a re-analysis of the deposited data

How the results depend on the processing

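No paired analysis was possible because each group has 1 array and the labels carry no replicate numbers. Depth of signal limits Mxd3 and Mxi1, which were below background on 4 and 5 arrays, and 1 array per group limits all values. Mycn stayed called at 48 h under every alternative run (3.36 to 3.66) and at 3 h of the high dose against control (1.03 to 1.45). Its call against the low dose was lost, leaving 0 members, with arrays centred on their median (0.97) and with normexp (0.94). In an alternative chosen after seeing the data, the second Mxd1 probe gave -0.74 at 48 h against control and -0.72 against the 3 h high dose, leaving 1 member called in each, while the mean of both probes gave 1.51 and 1.06. With no filter on dim probes 4 members were called at 48 h (Mxd3 higher and Mxi1 lower beside Mycn and Mxd1), and 1, Mxi1, between the controls. At 1.5-fold Myc was called lower at 48 h against control beside Mycn and Mxd1 higher, where 5512 of 13735 genes were called. Against the 3 h high dose Max was called lower beside Mycn and Mxd1 higher, where 4926 of 13768 genes were called. Of the targets, 2 were lower at each dose of 3 h when set against the 48 h control, and the 1 called between controls became 0 with median centring and with normexp. At 1.5-fold the targets called were 34 at 48 h of the high dose against control, 36 against the 3 h high dose, 3 between controls and 1 between doses. In the same order that threshold called 5512 of 13735, 4926 of 13768, 1564 of 14013 and 990 of 14346 of all genes. The 18 targets called as reported at 48 h against control became 13 with quantile normalization and with normexp. They became 16 with the mean of probes and 19 with median centring. Against the 3 h high dose 15 were called as reported and 11 with quantile normalization. The cause of the shifts with scaling and background correction was not tested. The share of all calls that were higher at 3 h of the high dose was 56.4%, 40.7% with median centring, which moved the median of all genes from -0.01 to -0.13. Between the controls it was 64.8% and 49.3%, with medians of 0.01 and -0.12. The counts of all genes called in either direction are larger by over 1.5 times at 1.5-fold and without the filter (5512 and 4469 at 48 h, against 2747), and at 3 h of the high dose 1548 and 1361, against 463 as reported and 216 with normexp. Normexp also lowered the count at the low dose to 96, between doses to 126, against 310 as reported, and between controls to 287, against 542. Set against the 48 h control, the 3 h calls were 768 for the low dose, against 189 as reported, and 722 for the high dose, with 38.8% and 39.1% of them higher, against 56.6% and 56.4%. Of the 237 alternative values of single members, 207 moved by less than the scanner error, 28 by more, and 2, both of Mxd1, changed the sign of a called difference. Differences under 2-fold changed sign under some alternatives, as for Mxd4 at 48 h (0.38, and -0.17 against the 3 h control).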

Other observations

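A list drawn up around the stability of the Myc proteins had 2 of 13 measured genes higher and 0 lower at 48 h of the high dose. That is 15.4% higher, beside 9.92% of all genes higher and 10.1% lower, with a median of -0.00. The first was Aurka, a mitotic kinase that also binds and stabilises the Mycn protein, at 3.09 at the high dose, against -2.28 in the control. The other was Bin1, at 6.29 at the high dose, against 4.93 in the control. Bin1 is listed as a Myc-interacting adaptor, and a part of it in stability was not tested. Aurka is also a cell cycle gene, and it lay between -1.73 and -1.21 at 3 h. Fbxw7, the ubiquitin ligase subunit that marks Myc proteins for breakdown, was chosen after its value was seen and differed by -0.80, under 2-fold.

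The genes on either side of Mxd1 in RefSeq were looked up after its probes were seen to disagree. Gm38676 and Gm46963 had no probe among the named genes. Those with a probe differed little at 48 h of the high dose. Asprv1 differed from control by -0.06, Snrnp27 by -0.16 and Gmcl1 by -0.30.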
